A study of Rattus norvegicus with 2 samples.

Results

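The levels of 10 epithelial keratin genes were followed in RNA from rat urine. They are Krt4, Krt5, Krt7, Krt8, Krt13, Krt14, Krt15, Krt18, Krt19 and Krt20, chosen by symbol among the 16484 features of the deposited table that carry a number-only NCBI gene ID, out of 113011 features in all. All 10 were found. Urine of Sprague Dawley rats was sequenced in 1 library labelled UUO, from rats whose right ureter had been tied (unilateral ureteral obstruction), and in 1 library labelled WT, from rats that had the same operation without the tie. The rats were 8 weeks old (postnatal day 56 in the labels), the samples were taken 2 weeks after surgery. The number of rats behind each library is not given in the sources used here. By the methods of the study, urine was drawn through a catheter in the ureter in both groups, after the urine held back in the obstructed ureter had been let off. With 1 library per group, no difference below has a replicate check, no test was possible, and every comparison describes these 2 libraries. The methods also state that urine was spun before it was stored and again once thawed, ahead of RNA isolation. Whether cells remained in the urine used for RNA is not stated. In bulk RNA such as this, fewer cells of a type, less RNA per cell and RNA outside cells cannot be told apart. The conditions are called UrRf and Urc in the table. UrRf was taken to be UUO and Urc to be WT, since renal fibrosis is named in the title of the series and the study's own lists of urine genes give the same columns as UUO and Sham, and every direction rests on that reading.

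Keratins are the intermediate filament proteins of epithelial cells. A filament is built from pairs of 1 type I (acidic) and 1 type II (basic) keratin, and the pair a cell makes changes with the kind of epithelium and with its maturity. Krt8 with Krt18 is the pair of simple, single-layered epithelia, such as kidney tubules and ducts, and Krt7 and Krt19 join it in ducts and in the urothelium, the stratified lining of the renal pelvis, ureter and bladder. Krt5 with Krt14 is the pair of basal cells in stratified epithelia, where Krt15 is also made. Krt4 with Krt13 is found above the basal layer of stratified epithelia that do not cornify, and Krt20 marks the superficial umbrella cells of the urothelium. The genes were therefore read as simple (Krt7, Krt8, Krt18, Krt19), basal (Krt5, Krt14, Krt15), suprabasal (Krt4, Krt13) and superficial (Krt20) keratins.

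The simple keratins held most of the keratin signal in both libraries, and basal Krt14 was higher in UUO urine. Suprabasal Krt4 and superficial Krt20 were lower as deposited. Neither of these 2 calls held under the 3 rescalings of UUO values given below, where both differences stayed below 0. Basal Krt5 was seen in UUO urine and listed at 0 in WT urine, but the merged region it is listed in held nearly equal sums, 317 FPKM in WT and 346 FPKM in UUO urine, and its 0 can be a failed estimate. Levels are given in FPKM, fragments counted per kilobase and scaled to the fragments of the library, which can be compared between genes. A difference is that of log2(FPKM + 1), UUO minus WT, and a gene was called higher or lower at a difference of 1 or more in size (2-fold), among genes that reached an FPKM of 1 in 1 library or both. Of the 10 keratins, 9 passed this limit on low values. Krt5, Krt14 and Krt19 were called higher (3 of 9) and Krt4 and Krt20 lower (2 of 9). Among all 9853 number-only genes that passed it, 25.7% were called higher and 36.5% lower, and nothing about the keratins is read from their counts alone. The median difference was 0.63 for the 9 keratins and -0.51 for the 9853 genes.

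The libraries differed in scale, and this bears on each call. Over the 7218 number-only genes that reached an FPKM of 1 in both libraries, the median difference was -0.81. In 3 rescalings, UUO values were brought to equal summed FPKM, to the median ratio of those genes or to the same 75th percentile, which multiplied each of them by 1.543, 1.859 and 1.948. On those scales 5, 7 and 7 keratins were called higher and none lower, with 35%, 39.8% and 41.3% of all genes tested called higher and 20.8%, 15.6% and 14.5% lower. Comparisons within a library, such as ratios between keratins, shares of the keratin sum and ranks among genes, do not move with such a factor. They are given beside the differences for that reason.

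**Figure D1:**
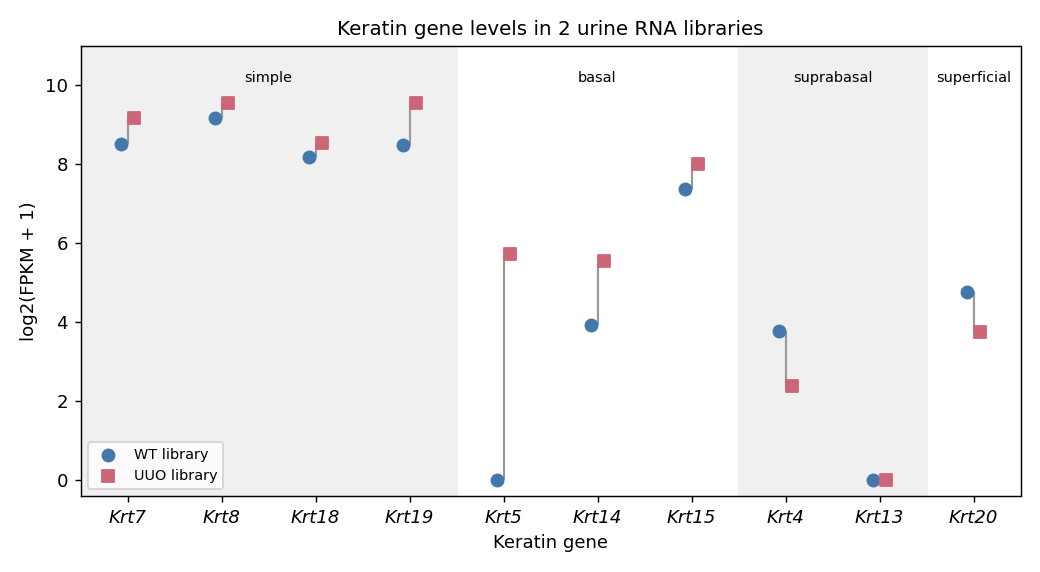
Level of each of the 10 keratin genes on the log2(FPKM + 1) scale in the WT library (circles) and the UUO library (squares), 1 library each, with a grey line joining both values of a gene. The simple keratins and Krt15 sit highest in both libraries, Krt5 goes from 0 to an FPKM of 51.8, Krt4 and Krt20 lie lower in UUO urine, and Krt13 is listed at 0 in both.

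Krt8, the type II partner in simple epithelia (ID 25626, chromosome 7, 141393001 to 141400649), had 578 FPKM in WT and 748 FPKM in UUO urine. Coordinates of measured genes are those of the deposited table, for which the submitters' processing notes name the build rn5. Krt18, its type I partner (ID 294853, chromosome 7, 141425684 to 141429360), had 290 FPKM in WT and 371 FPKM in UUO urine. Both were higher in UUO urine by less than 2-fold, with differences of 0.37 for Krt8 and 0.36 for Krt18. The pair kept nearly the same proportion, since Krt8 stood at 1.99 times Krt18 in WT and 2.02 times in UUO urine. Krt8 and Krt18 have copies elsewhere in the rat genome that can share reads with them. RefSeq lists 7 copies of Krt18 and 1 of Krt8 by name, none of which was matched in the deposited table, so the level of both genes is uncertain to that extent.

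Krt7, a type II keratin of ducts and urothelium (ID 300242, chromosome 7, 140860997 to 140877153), had 368 FPKM in WT and 579 FPKM in UUO urine. Krt19, the smallest of the keratins and a type I partner in ducts and urothelium (ID 360626, chromosome 10, 87848514 to 87853251), had 357 FPKM in WT and 752 FPKM in UUO urine. Krt19 was the only simple keratin called higher, with a difference of 1.07 against 0.65 for Krt7. In WT urine Krt7 and Krt19 stood at nearly the same level, 1.03 to 1, and in UUO urine Krt7 stood at 0.77 of Krt19. Krt19 relative to Krt18 went from 1.23 in WT to 2.03 in UUO urine. Among the 16484 number-only genes, Krt19 ranked 106th by FPKM in WT and 18th in UUO urine, Krt8 52nd and 19th, Krt7 100th and 26th, and Krt18 145th and 48th. The median difference of the 4 simple keratins was 0.51.

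The basal keratins differed among themselves more than the simple ones. Krt15 (ID 287700, chromosome 10, 87839479 to 87843318) was by far the most abundant of them, at 165 FPKM in WT and 257 FPKM in UUO urine. Krt14, the type I keratin of basal cells (ID 287701, chromosome 10, 87910512 to 87914716), had 14.2 FPKM in WT and 46 FPKM in UUO urine. Krt5, its type II partner (ID 369017), was listed at 0 in WT and at 51.8 FPKM in UUO urine. Krt14 was 3.24 times higher in UUO urine, a difference of 1.63, and it was called higher under every rescaling tried. Krt15 was higher by less than 2-fold, with a difference of 0.63. Krt15 stood at 11.6 times Krt14 in WT and at 5.59 times in UUO urine. Krt14 shares near-identical sequence with its neighbours Krt16 and Krt17, so the split of reads among these 3 is uncertain.

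The zero of Krt5 in WT urine has a limit of its own. The table lists Krt5 in a merged region of 206108 bases (chromosome 7, 141088529 to 141294636) that holds 25 features, 9 of them number-only keratin genes. One noncoding entry of the same region, NONRATG027164, had 311 FPKM in WT and 274 FPKM in UUO urine, and another, NONRATT050533, had 5.88 and 5.31. The whole region summed to 317 FPKM in WT and 346 FPKM in UUO urine, a difference of 0.13. Whether either noncoding entry overlaps Krt5 itself cannot be read from the listed region, and a part played by reads shared with them was not tested. No fold is given for Krt5, because a value of 0 in such a table can be a failed estimate. By the steps in the FPKM values of assembled features, 1 FPKM stood for 2.12 fragments per kilobase in WT and 2.44 in UUO urine. Krt5 in UUO urine thus held about 127 fragments per kilobase, and 3 fragments on 1000 bases would have given an FPKM of 1.42 in WT urine. These numbers cover counting alone.

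Krt4, the type II keratin of non-cornifying stratified epithelia (ID 315323, chromosome 7, 141315272 to 141321166), had 12.7 FPKM in WT and 4.2 FPKM in UUO urine, a difference of -1.40. Krt13, its usual type I partner (ID 287699, chromosome 10, 87824572 to 87828769), was listed at 0 in both libraries. At the locus of Krt13 the 2 noncoding entries together reached 1.02 FPKM in UUO urine and were at 0 in WT urine. Krt20, the superficial keratin (ID 286912, chromosome 10, 87138390 to 87147209), had 26.4 FPKM in WT and 12.5 FPKM in UUO urine, a difference of -1.02. These levels correspond to about 55.9 and 30.5 fragments per kilobase for Krt20, and 26.9 and 10.3 for Krt4. Krt4 and Krt20 were the 2 keratins that also went down in rank among genes, Krt20 from 2649th in WT to 3050th in UUO urine and Krt4 from 4453rd to 6394th. Neither call held under the 3 rescalings, where the difference lay between -0.43 and -0.11 for Krt20 and between -0.88 and -0.58 for Krt4, still below 0. With FPKM summed over the 4 features of its locus, Krt20 had a difference of -0.94.

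**Figure D2:**
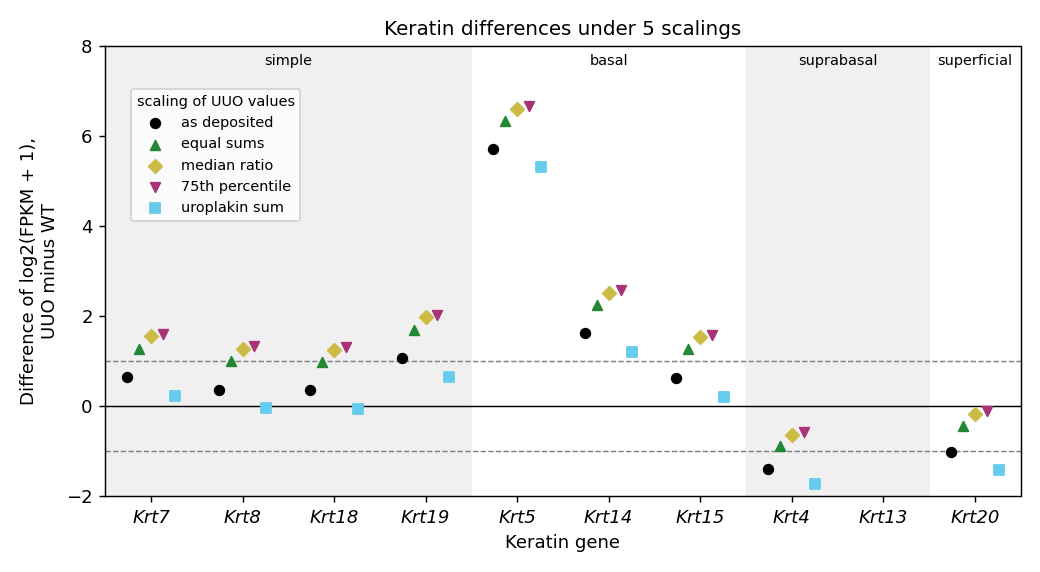
Difference of log2(FPKM + 1), UUO minus WT, for the 9 keratins that passed the limit on low values, as deposited and with UUO values rescaled in 4 ways, and with no point for Krt13. Dashed lines mark the 2-fold limit. Krt5 and Krt14 lie above 1 on all 5 scales, Krt4 and Krt20 lie below 0 on all 5 but reach -1 only as deposited and on the uroplakin scale, and the other 5 keratins change their side of 1 with the scale.

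The makeup of the keratin signal does not depend on these scales. The 10 keratins summed to 1812 FPKM in WT and 2822 FPKM in UUO urine. Simple keratins made up 87.9% of it in WT and 86.8% in UUO urine. Within that share Krt8 went from 31.9% in WT to 26.5% in UUO urine and Krt18 from 16% to 13.2%, while Krt19 went from 19.7% to 26.6% and Krt7 held 20.3% and 20.5%. The basal keratins made up 9.89% in WT and 12.6% in UUO urine. Krt15 held nearly the same share in both, 9.11% and 9.1%, while Krt14 held 0.784% and 1.63% and Krt5 0% and 1.84%. The basal share rests in part on the 0 of Krt5 in WT urine, and with Krt5 left out it was 9.89% in WT and 10.9% in UUO urine. Krt20 made up 1.46% in WT and 0.443% in UUO urine, and Krt4 0.702% and 0.149%. Type II keratins held 52.9% in WT and 49% in UUO urine, and type I keratins 47.1% and 51%. These shares cover the 10 keratins alone and leave out the type II gene Krt80.

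**Figure D3:**
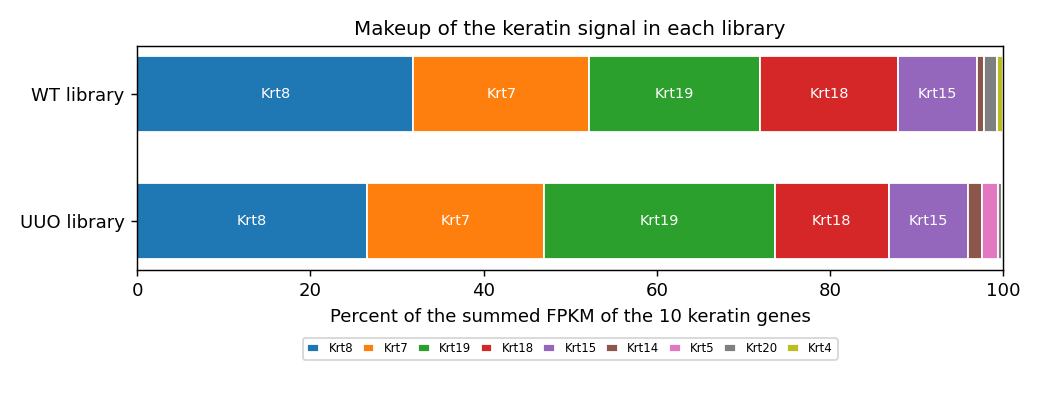
Share of each keratin gene in the summed FPKM of the 10 keratins, in percent, 1 bar per library. Krt8, Krt7, Krt19 and Krt18 fill 87.9% of the WT and 86.8% of the UUO bar, Krt19 is wider in UUO urine and Krt8 narrower, and Krt5 is seen in the UUO bar alone.

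Superficial and simple keratins moved apart in the same urine. Krt8 stood at 21.9 times Krt20 in WT and at 59.9 times in UUO urine, Krt7 at 13.9 and 46.4 times, and Krt19 at 13.5 and 60.2 times. The uroplakins, the membrane plaque proteins of umbrella cells, did not all share the direction of Krt20 as deposited. Upk3a had 312 FPKM in WT and 466 FPKM in UUO urine, Upk1a 170 and 277, and Upk2 82.4 and 169, whereas Upk1b had 216 and 136, a difference of -0.66 that turned to 0.23 by the median ratio. These 4 genes summed to 779 FPKM in WT and 1047 FPKM in UUO urine. Krt20 came to 3.39% of that sum in WT and to 1.19% in UUO urine, and the simple keratins together to 2.04 and 2.34 times the sum. When UUO values were rescaled to the same uroplakin sum, a scale chosen after the data were seen, Krt5 and Krt14 were called higher and Krt4 and Krt20 lower, while Krt19 was no longer called, at 0.65, and Krt8 and Krt18 had differences of -0.05 and -0.07. On that scale 20.8% of all genes tested were called higher and 48.2% lower.

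The sequences just before the transcription start are shown for the 4 keratins with a usable window. The 4 are Krt18 of the simple pair, Krt5 of the basal pair, and Krt4 and Krt20, the 2 called lower as deposited. Each sequence is the 100 bases upstream of the start annotated by RefSeq in GRCr8, and this build is not that of the measured coordinates. RefSeq promoter windows were matched for 5 of the 10 keratins, Krt8 being the fifth, and its window is not shown because its annotated start lies at the ATG. Capitals mark matches to TATAA (the core of the TATA box) or GGGCGG (the GC box), searched with TGANTCA (the AP-1 site) on both strands. Krt18 lies on the plus strand at chr7:135036068-135036167, and the other 3 on the minus strand, Krt5 at chr7:134730570-134730669, Krt4 at chr7:134930714-134930813 and Krt20 at chr10:84890286-84890385.
Krt18: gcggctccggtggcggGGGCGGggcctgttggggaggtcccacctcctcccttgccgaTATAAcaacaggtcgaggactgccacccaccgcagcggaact
Krt5: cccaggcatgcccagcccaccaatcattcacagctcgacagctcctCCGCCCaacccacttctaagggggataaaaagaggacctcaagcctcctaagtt
Krt4: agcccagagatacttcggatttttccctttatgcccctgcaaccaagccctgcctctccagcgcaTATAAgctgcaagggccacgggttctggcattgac
Krt20: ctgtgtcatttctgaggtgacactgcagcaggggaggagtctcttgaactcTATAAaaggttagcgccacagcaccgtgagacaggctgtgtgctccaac

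TATAA was found in 3 of these windows, starting 42 bases before the start of Krt18, 35 before that of Krt4 and 49 before that of Krt20. Over 33469 rat promoter windows of the same length, 11% held TATAA on either strand. GGGCGG was found in Krt18, on the gene's strand, and in Krt5, on the other strand, where it reads CCGCCC. It was found in 21.6% of all windows. TGANTCA was not found in the 4 windows shown and was found in 2.47% of all windows. TATAA thus stood before Krt4 and Krt20, called lower as deposited, and before Krt18, which was higher by less than 2-fold. The exact letters TATAA were not found before Krt5. The Krt5 window holds gataa, which differs in its first letter, and near matches of this kind were not searched for. These matches are a description of the letters alone.

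By position, the keratins fall into both keratin clusters of the rat genome. Krt4, Krt5, Krt7, Krt8 and the type I gene Krt18 lie on chromosome 7, and Krt13, Krt14, Krt15, Krt19 and Krt20 on chromosome 10. Neighbours did not all share a direction. Krt19 and Krt15 lie next to Krt13 on chromosome 10 and stood at 752 and 257 FPKM in UUO urine, where Krt13 was listed at 0. Krt8 and Krt18 lie close to Krt4 on chromosome 7 and were both higher in UUO urine, where Krt4 was lower. Noncoding entries were listed at the loci of 9 of the keratins, all but Krt18. They took little of the signal of the abundant genes, since Krt7, Krt8, Krt15 and Krt19 held between 95.7% and 99.2% of the FPKM summed over their loci in either library. One noncoding entry at the locus of Krt8, NONRATT052576, had 3.93 FPKM in WT and 28.6 FPKM in UUO urine. At the locus of Krt19, NONRATT012116 was higher in UUO urine (2.34 and 8.31) and NONRATT012117 was lower (8.18 and 2.12).

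The table holds 40 other keratin genes, among them the keratins of hair and of the cornified epidermis. Of these, 7 passed the limit on low values, 6 called higher and 1 lower, and 5 of the 7 were listed at 0 in WT urine. With equal sums, the median ratio and the 75th percentile, 8, 9 and 10 of these keratins were called higher. Lower were 1, 1 and 0, and on the uroplakin scale 5 were higher and 1 lower. Among all genes tested, 25.7% were called higher and 36.5% lower as deposited. Nothing is read from these counts alone. Krt42 and Krt77 were called higher at only 1.97 and 1.24 FPKM in UUO urine, where 1 FPKM stood for 2.44 fragments per kilobase. In WT urine only Krt80 and Krt23 were above 0, against 17 in UUO urine, of which 10 stayed under an FPKM of 1. Krt80, a type II keratin of many epithelia, had 227 FPKM in WT and 58.4 FPKM in UUO urine, a difference of -1.94 that lay at -0.99 when rescaled to the same 75th percentile. Krt23 had 8.28 FPKM in WT and 24.9 FPKM in UUO urine. Krt17, a type I keratin of wounded and hyperproliferative epithelium, was listed at 0 in WT and had an FPKM of 24.2 in UUO urine, and Krt6c had 0 and 8.28. Epidermal Krt1 and Krt2 were listed at 0 in both libraries and Krt10 reached 0.00015 in UUO urine, while Krt9 had 0.948 and Krt77 had 1.24 FPKM in UUO urine and both were listed at 0 in WT urine. Krt1, Krt2, Krt6c and Krt77 are listed in the same merged region as Krt5, where a 0 has the limit given above. The 10 keratins followed here held 88.5% of the FPKM of all keratin genes in WT and 95.7% in UUO urine.

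**Figure D4:**
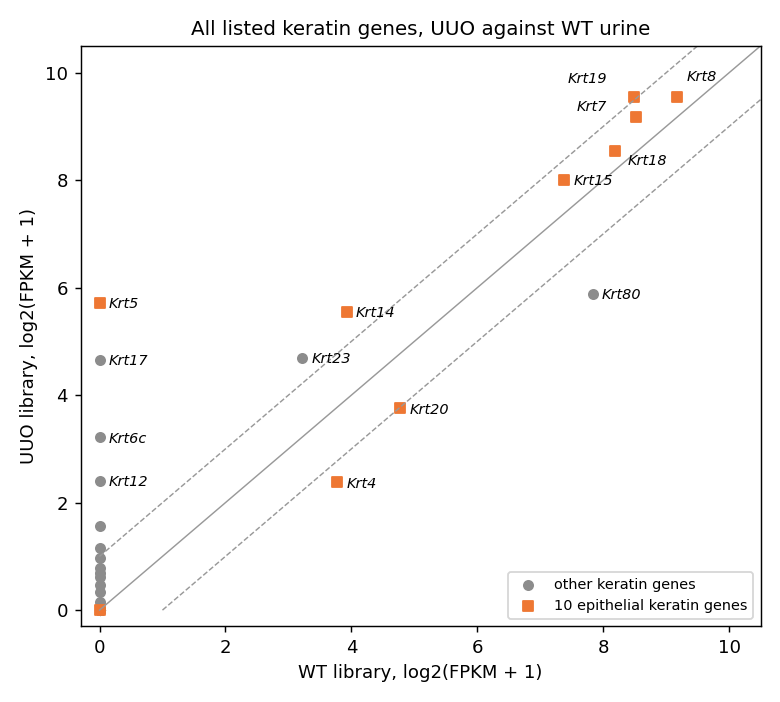
Level of all 50 listed keratin genes in the UUO library against the WT library on the log2(FPKM + 1) scale, with the 10 epithelial keratins as squares. The solid line marks equal levels and the dashed lines the 2-fold limit, Krt80 lies farthest below the lines, and Krt5, Krt17, Krt6c and Krt12 lie on the vertical axis because they are listed at 0 in WT urine.

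Other intermediate filament genes had a median below 0, unlike the keratins. Of 15 found, 10 passed the limit on low values, 2 of them called higher and 5 lower. The median difference was -1.01, staying between -0.80 and -0.73 under the 3 rescalings. As deposited, it lay between Prph (2.33 FPKM in WT and 0.518 FPKM in UUO urine) and Ina (1.06 and 0.118), both near the limit on low values. Among genes at higher levels, the differences of Vim, Des and Nes lay above 0 and those of Lmna, Lmnb1 and Synm below 0. All genes tested had a median of -0.51 as deposited, with 25.7% called higher and 36.5% lower. Vim, the filament gene of mesenchymal cells and of injured tubule cells, had 7.08 FPKM in WT and 24.6 FPKM in UUO urine, and Des, the muscle filament gene, had 6.06 and 14. Synm had 28.8 FPKM in WT and 3.35 FPKM in UUO urine, and Nefm, a neurofilament gene, 4.88 and 0.0127. Lmna, the nuclear lamin made in nearly all cells, was the highest of the list at 176 and 110, a difference of -0.68 that turned to 0.21 by the median ratio.

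The genes that tie keratin filaments to desmosomes and membranes had a median near 0 as deposited, with single genes between -1.72 (Pkp3) and 0.46 (Plec). Of 12 listed, 9 were found and passed the limit. Among these, none was called higher and 2 were called lower as deposited, against 2 and 2 with equal sums and 4 and 0 under the other 2 rescalings. As deposited, 25.7% of all genes tested were called higher and 36.5% lower. The median difference of the 9 was -0.20 as deposited and 0.42, 0.68 and 0.75 under the 3 rescalings, so that it has no direction that holds on every scale. Plec, a large linker of filaments, had 96.7 FPKM in WT and 133 FPKM in UUO urine, Evpl 70 and 92, and the desmosome gene Jup 85.1 and 73.8. The 2 called lower were Pkp3, a desmosomal plakophilin (24 in WT and 6.56 in UUO urine), and Tchp, a keratin-binding protein (15 and 4.37).

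Transcription factors and splicing regulators of epithelia went in both directions. Of 16 found, 4 were called higher and 7 lower as deposited, against 5 and 3 with equal sums and 6 and 2 under the other 2 rescalings. Over all genes tested, 25.7% were called higher and 36.5% lower as deposited, with a median difference of -0.51. Nothing about the regulators is read from their counts alone. The median difference of the 16 was -0.76 as deposited, -0.16 with equal sums and 0.10 by the median ratio. Elf3, an epithelial ETS factor, was the highest, at 128 FPKM in WT and 173 FPKM in UUO urine. Pparg, a factor of urothelial differentiation, had 13.7 and 45.5, and Ovol2 was listed at 0 in WT and at 6.52 in UUO urine. Grhl2, a factor that maintains epithelial genes, had 74.8 FPKM in WT and 7.57 FPKM in UUO urine, Tfap2a 36.6 and 0.536, and Ehf 74.5 and 29.4. Trp63, the master factor of basal cells, was not analysed here, because no feature was matched to it.

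Markers of other cells were read from lists beside the keratins. As deposited, 25.7% of all genes tested were called higher and 36.5% lower, and nothing is read from the counts of these lists alone. The 4 uroplakin genes found were all above 0 in both libraries, so urothelial transcripts were present in each. Of the 6 collecting duct genes, cells that also make simple keratins, 3 were called higher and none lower. The 6 summed to 162 FPKM in WT and 219 FPKM in UUO urine. Among the 3 called, Avpr2 was listed at 0 in WT and at only 1.02 FPKM in UUO urine, so it could only be called higher. Aqp2, the water channel of principal cells, had 50.2 FPKM in WT and 35 FPKM in UUO urine, a difference that turned from -0.51 to 0.37 by the median ratio, and Aqp3 had 85.1 and 121. Of the 6 proximal tubule genes none was called higher and 5 were called lower, and they summed to 125 FPKM in WT and 40.1 FPKM in UUO urine. Of the 6 leukocyte genes found, 4 were called higher and none lower, with 5 listed at 0 in WT and 1 in UUO urine and sums of 7.55 and 40.2. Among those called, Cd68, Itgam and Ptprc were listed at 0 in WT urine and so could only be called higher. They had 7.87, 1.63 and 3.33 FPKM in UUO urine. The 4 red-cell genes found were all called higher, with sums of 2454 and 77660. Of 4 stroma and mesothelium genes 2 were called higher, with sums of 44 and 68.6. These were the mesothelial gene Msln (17 FPKM in WT and 37.5 FPKM in UUO urine) and Dcn (0 and 4.05). The collagen genes Col1a1 and Col3a1 were not called, with differences of 0.52 and -0.38. The 4 epidermis genes found stayed under an FPKM of 1 in both libraries, with a sum of 0.293 in UUO urine. The part of these cell types in the keratin values was not tested. Because red-cell transcripts weighed on the UUO library, the share of the 10 keratins in the summed FPKM of all number-only genes was taken both ways. It was 0.537% in WT and 1.04% in UUO urine with them, and 0.542% and 1.55% without 14 red-cell and haemoglobin genes.

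**Figure D5:**
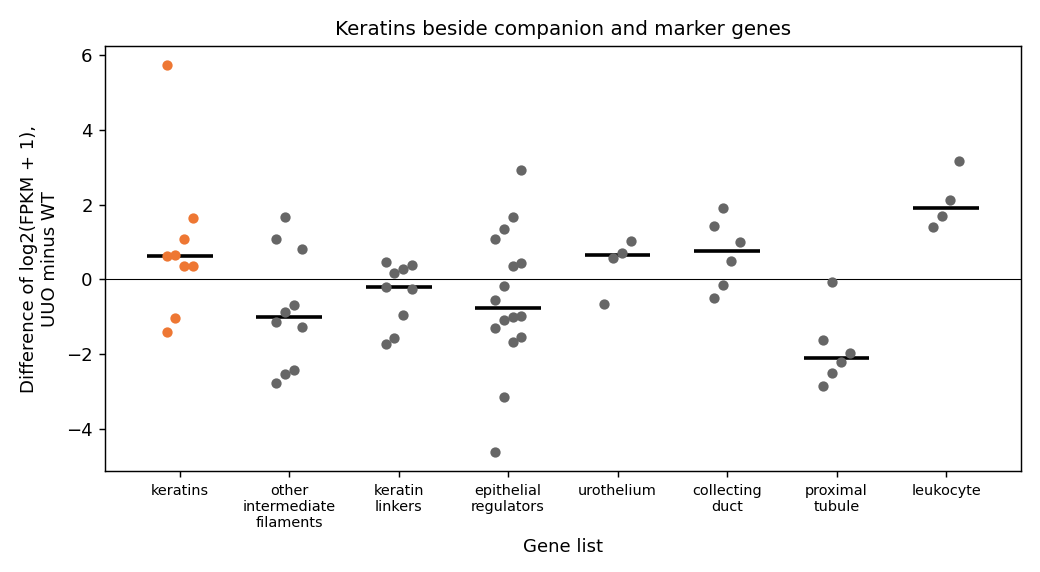
Difference of log2(FPKM + 1), UUO minus WT, for the keratins and for each gene of 7 companion and marker lists that passed the limit on low values, 1 point per gene, with the median of each list as a bar. The keratin median lies at 0.63 beside 0.64 for the uroplakins and 0.76 for collecting duct genes, and the medians of the other filaments (-1.01) and of proximal tubule genes (-2.09) lie below 0, as they also do under the 3 rescalings, while that of the regulators (-0.76) lies above 0 by the median ratio.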

How the data were processed

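The authors deposited 1 table in the layout of Cuffdiff, with 1 FPKM value per feature and library. The submitters' processing notes name Bowtie2 2.0.6, TopHat2 2.0.9, Cufflinks 2.1.1, Cuffdiff 2.1.1 and rn5. Per the study's methods, cleaned read pairs were aligned with TopHat and assembled with Scripture and Cufflinks. For urine RNA the methods describe a column kit and the labels name Trizol. The authors' columns of fold changes, test statistics, p-values and q-values were not used. Read counts were not used here.

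Symbols came from RefSeq (GRCr8), which matched 16329 of 16484 number-only IDs. Differences, medians, shares and ranks were computed with pandas 2.3.3 and numpy 2.4.6 in Python 3.11.15, using a pseudocount of 1, a minimum FPKM of 1 and a 2-fold limit. The scripts were tested on simulated data. Depth was read from the FPKM steps of assembled features alone at their locus, 400 to 1200 bases long. The fit gave a normalising total of 2116000 fragments in WT (186 features, 93.5% within 0.1 of whole numbers) and 2444000 in UUO urine (3530 features, 99.3%). The total the authors scaled by is not given in the sources used here. Overlapping features share reads, so their FPKM is uncertain.

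The keratins and the gene lists were chosen with earlier results of these data known. Named beside the 10 keratins were, for the other keratins and the lists of other filaments, linkers and regulators, the 3 genes with the highest FPKM and the 2 with the greatest difference in each direction, and, of the marker lists, genes set beside a keratin result. Other pseudocounts, limits, rescalings and locus sums were tried as alternatives. With 2 libraries no gene could be named for a pattern like that of a keratin. Of other keratins, Krt1, Krt2, Krt9, Krt10, Krt12, Krt42 and Krt77 were named after their values were seen, as were the noncoding entries.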

Additional observations from a re-analysis of the deposited data

How the results depend on the processing

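No paired analysis was possible because only 1 library stood for WT and 1 for UUO. Differences of the same sign and on the same side of 1, counts within 1.5 times and shares within 5 percentage points are taken as unchanged, and 96 of 148 combinations of a result with an alternative met this. Some of the 96 could not have changed. Krt13, at 0 in both libraries, stays at 0 under any pseudocount or rescaling, and a minimum FPKM of 5 removed no further keratin. Most of the combinations that did change came from scaling, since each planned rescaling raises all UUO values by 1 factor. To equal sums, the median ratio and the 75th percentile in turn, 5, 7 and 7 keratins were called higher and 0, 0 and 0 lower. The keratin median was 1.26, 1.53 and 1.59, that of simple keratins 1.14, 1.41 and 1.47, that of suprabasal keratins (Krt4 alone) -0.88, -0.64 and -0.58, and Krt20 was -0.43, -0.18 and -0.11. Krt8 and Krt18 reversed to -0.05 and -0.07 on the uroplakin scale, chosen after the data were seen. A pseudocount of 10 left 0 lower, with Krt4 and so the suprabasal median at -0.68 and Krt20 at -0.69. A 4-fold limit left 1 higher (Krt5) and 0 lower. Summed over the locus 1 was lower, Krt20 was -0.94 and the suprabasal median -0.03, since Krt13 then entered it. Krt5 was left unsummed there, because its region holds 9 number-only genes. With that region summed too, an alternative chosen after the data were seen, Krt5 was 0.13 and the basal median fell under 1, to 0.66, with 1 lower, Krt20 at -0.94 and the suprabasal median at -0.03. Without a filter on low values that median was -0.70, as Krt13 entered at 0. Without Krt8, the highest keratin there, simple keratins held 82.3% in WT urine. The basal median kept its side of 1 under the other alternatives run. For Krt5 and Krt13 depth and shared reads limit what a 0 can show.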
